A study of Mus musculus with 4 samples.

Results

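The genes described here encode the proteins of the cytosolic ribosome. They were chosen by the gene name printed on the array, which had to start with Rpl or Rps and a number or be Rplp0, Rplp1, Rplp2 or Rpsa, with ribosomal S6 kinases and names marked as pseudogenes left out. The rule found 82 names on 137 probes, and 81 of these had a probe that passed the filter on dim spots, among 20518 genes tested. Of the 81 genes, 48 belong to the large subunit and 32 to the small subunit. The remaining gene is Rps19bp1, a nucleolar partner of the small subunit protein Rps19 that the spelling rule caught although it is no ribosomal protein.

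RNA came from 4TO7, a mammary tumour line of BALB/cfC3H mice. One group carried the retroviral vector pMSCV with the microRNA cluster miR-23b/27b/24 as a stable insert (2 arrays), and the control group carried the empty pMSCV-puro vector (2 arrays), so both lines share the retroviral backbone. According to the series, replicates are separate transfections, and p-values measure only the spread between these. Each array compared cell RNA in Cy5 with Universal Mouse Reference RNA in Cy3, pooled from 11 lines of mouse cells, and dyes were not swapped. The mature microRNAs were not measured in the values used here.

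A ribosome joins a small subunit, which decodes the messenger RNA, to a large subunit, which forms the peptide bond. Each subunit is a scaffold of ribosomal RNA dressed with many small basic proteins, most of them needed in equal numbers, and their messenger RNAs are among the most abundant of a growing cell. In mammals these messengers start with a cytosine followed by an unbroken run of pyrimidines, the 5′ terminal oligopyrimidine (TOP) tract, which lets the mTOR pathway control their translation together.

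The sequences that the results turn on are given first. Each probe of the array is a 60-base oligonucleotide, with its position in the mouse build mm7 as the files give it. The paralogs Rpl22l1 and Rpl22 come first, each by its brightest probe, at chr3:28622984-28623043 on the plus strand and chr4:151319591-151319650 on the plus strand. The second probe of Rpl22l1, at chr3:28621328-28621387 on the plus strand, was designed on a full-length cDNA clone and read the opposite direction.
Rpl22l1 brightest probe: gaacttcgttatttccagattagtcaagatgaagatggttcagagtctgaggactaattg
Rpl22l1 second probe: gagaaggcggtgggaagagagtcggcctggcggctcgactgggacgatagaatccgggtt
Rpl22 brightest probe: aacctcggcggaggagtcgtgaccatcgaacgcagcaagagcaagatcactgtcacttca
The probes of Rps12 lie on the minus strand, at chr10:23538288-23538347 for the brightest and chr10:23539315-23539374 for the second, which was also designed on a cDNA clone. They are shown because they too disagreed in direction.
Rps12 brightest probe: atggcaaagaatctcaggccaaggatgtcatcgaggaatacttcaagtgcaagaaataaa
Rps12 second probe: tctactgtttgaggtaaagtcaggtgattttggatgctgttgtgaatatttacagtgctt
Rps28 is shown because it fell and its 3 probes all passed in the same direction. They lie on the minus strand of chromosome 17, at chr17:31897025-31897160, chr17:31897015-31897154 and chr17:31897157-31897216. Capitals mark a run of 40 bases that the first 2 probes share, so these 2 are not separate readings of the transcript, whereas the other probe lies elsewhere in it.
Rps28 brightest probe: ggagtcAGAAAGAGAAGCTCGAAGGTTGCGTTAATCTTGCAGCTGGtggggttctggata
Rps28 second probe: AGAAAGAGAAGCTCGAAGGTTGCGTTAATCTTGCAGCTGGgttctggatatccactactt
Rps28 separate probe: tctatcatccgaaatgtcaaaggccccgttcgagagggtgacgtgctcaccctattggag
The annotation in the files gives the gene of each probe but not the exon.

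The inserted cluster makes microRNAs that pair with targets through their seed, bases 2 to 8, shown in capitals. The mature sequences are RefSeq entries of build GRCm38.p6 from chromosome 13, and miR-23b-3p is named only.
miR-27b-3p: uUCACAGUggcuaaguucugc
miR-24-3p: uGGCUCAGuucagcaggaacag
The seeds of these 2 differ, so they do not form a family. Target sites in ribosomal protein transcripts were not searched.

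Most ribosomal protein transcripts read lower in miR-23b/27b/24 cells, by a small amount. The log2 fold change (miR-23b/27b/24 minus vector, of the log2 ratio of cells over reference) was negative for 76 of 81 genes, against 54.2% of all genes, with a median of -0.42, against -0.03 over all genes. By limma with Benjamini-Hochberg adjustment over all genes, 13 fell at an adjusted p under 0.05 and 0 rose. The background for that count was 4.66% of all genes called lower and 4.78% called higher, 9.44% in all. The count of 13 rested on few arrays. With 1 array left out a group has a lone array, and the number called then swung widely, for these genes and for all genes alike. The ranges are given in the last section. The median of the 81 genes lay between -0.50 and -0.36 with any 1 array left out. At an unadjusted p under 0.05, 41 of the 81 were lower and 0 higher, against 2696 lower and 2991 higher of 20516 genes. The microRNA and vector arrays did not overlap for 64 genes that were lower and 2 that were higher in miR-23b/27b/24 cells, against 32.3% and 27.4% of all genes. In bulk RNA, fewer cells of a kind and less RNA per cell cannot be told apart.

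The shift was visible array by array. For the 81 genes the median log2 ratio was -0.38 in miR-23b/27b/24 replicate 1 and -0.16 in replicate 2, against 0.12 in vector replicate 1 and 0.23 in replicate 2. Both miR-23b/27b/24 medians lay below both vector medians, and the nearest arrays of different groups were farther apart than the replicates of either group. The Pearson correlation over these genes, which share their extracts, was 0.922 for the pair of miR-23b/27b/24 arrays, 0.834 for the pair of vector arrays and 0.513 to 0.632 for pairs from different groups. Over all genes the same correlations were 0.952, 0.887 and 0.629 to 0.725, so this contrast is not particular to ribosomal protein genes.

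**Figure D1:**
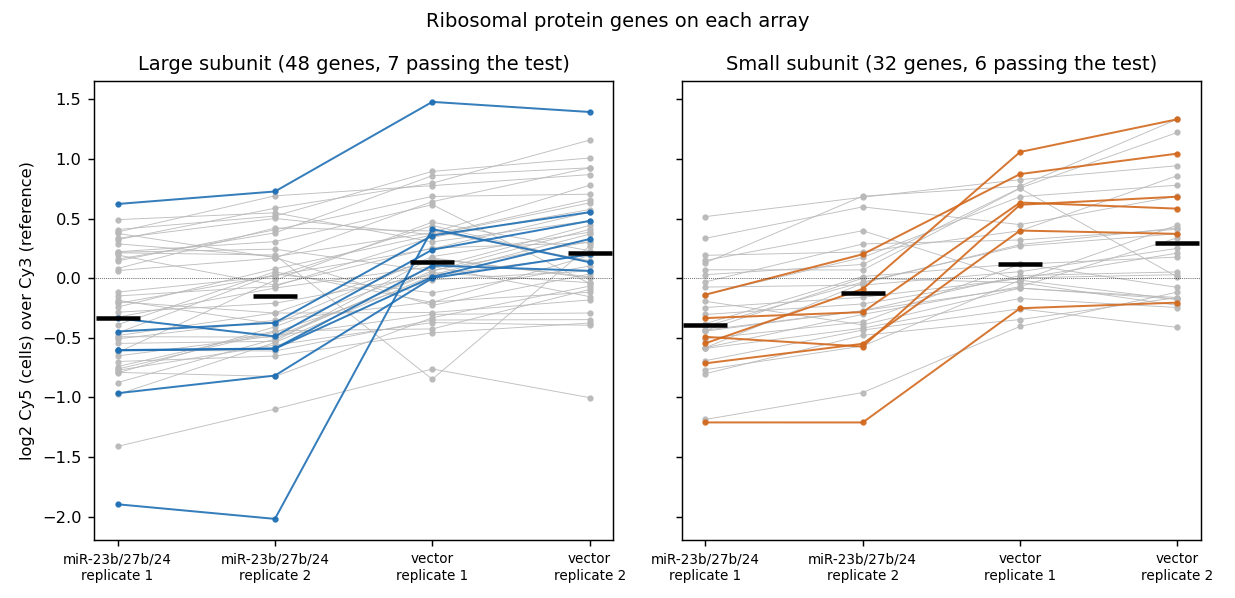
The log2 ratio of cells over reference is plotted for each large subunit gene (left) and small subunit gene (right) on the 2 miR-23b/27b/24 arrays and the 2 vector arrays, with coloured lines for the 13 genes that passed the test, grey lines for the others and black bars for the median of each panel. The medians of both panels lie lower on the miR-23b/27b/24 arrays, and Rpl22l1 makes the steepest step.

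The 32 small subunit genes had a median log2 fold change of -0.41, and 6 of them fell. Rps12 is a peripheral protein of the subunit's beak, known in Drosophila for its part in cell competition. Its log2 ratio was -0.55 and -0.09 on the miR-23b/27b/24 arrays, against 1.06 and 1.33 on the vector arrays. The step of -1.51 ± 0.21 (SE, n = 2 each, limma adjusted p = 0.0220) made the ratio 2.86-fold lower. The vector arrays were both above the reference, and the miR-23b/27b/24 arrays both below it. By normalized log2 channel, Cy5 of Rps12 was 17.09 and 17.41 on the miR-23b/27b/24 arrays, against 17.83 and 18.08 on the vector arrays. Cy3, the reference, was 17.64 and 17.50, against 16.77 and 16.74. Part of the step in the ratio therefore lay in the reference channel, and the cause of that was not tested. Rps23 sits at the decoding centre and helps keep translation accurate. It read -0.49 and -0.57 on the miR-23b/27b/24 arrays, against 0.62 and 0.68 on the vector arrays, and was 2.27-fold lower, with a log2 fold change of -1.18 ± 0.12 (SE, limma adjusted p = 0.0112). Replicates lay far closer together than the groups did.

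Rps26, Rps28, Rps29 and Rps27 are 4 further small subunit genes that fell, and in humans each is mutated in some families with Diamond-Blackfan anaemia, a failure of red cell production. Rps26 lies where the messenger leaves the ribosome, and read -1.21 and -1.21 on the miR-23b/27b/24 arrays, against -0.25 and -0.21 on the vector arrays (log2 fold change -0.98 ± 0.12, SE, limma adjusted p = 0.0161). Rps28 read -0.71 and -0.55 in miR-23b/27b/24 cells, against 0.40 and 0.37 in vector cells (log2 fold change -1.02 ± 0.13, SE, limma adjusted p = 0.0181). Both genes had replicates far closer to each other than to the other group, and Rps26 was below the reference on all 4 arrays. Rps29 read -0.34 and -0.29 in miR-23b/27b/24 cells, against 0.63 and 0.58 in vector cells (log2 fold change -0.92 ± 0.12, SE, limma adjusted p = 0.0191). Rps27, a zinc finger protein, read -0.14 and 0.20 in miR-23b/27b/24 cells, against 0.87 and 1.04 in vector cells (log2 fold change -0.93 ± 0.17, SE, limma adjusted p = 0.0398). For Rps27 the replicates were wider apart, but the groups did not overlap. Cy3 of Rps27 was also higher, at 17.08 and 16.96 on the miR-23b/27b/24 arrays, against 16.60 and 16.61 on the vector arrays. Cy3 of Rps26 was nearly level, at 16.45 and 16.47, against 16.45 and 16.37.

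Rps7 and Rps15 stood just outside the threshold. Rps7, which binds the p53 regulator Mdm2, read 0.03 and 0.11 on the miR-23b/27b/24 arrays, against 0.76 and 1.22 on the vector arrays (log2 fold change -0.92 ± 0.19, SE, limma adjusted p = 0.0534). Rps15, a protein of the subunit's head, read -1.19 and -0.96 on the miR-23b/27b/24 arrays, against -0.40 and -0.12 on the vector arrays (log2 fold change -0.81 ± 0.17, SE, limma adjusted p = 0.0505). Neither gene had overlapping groups. Cy3 of Rps7 was 17.31 and 17.27 on the miR-23b/27b/24 arrays, against 16.86 and 16.69 on the vector arrays. Rps6, the substrate of S6 kinase that gives the family its best known phosphorylation site, read -0.58 and -0.30 in miR-23b/27b/24 cells, against -0.07 and 0.34 in vector cells (log2 fold change -0.58 ± 0.20, SE, limma adjusted p = 0.144). Its groups did not overlap, but the test did not pass. The smallest shifts of the subunit were those of Rps16, at 0.06, and Rps21, at -0.09, where the arrays of both groups interleaved.

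The 48 large subunit genes had a median log2 fold change of -0.46, and 7 fell. Rpl22l1, the paralog of Rpl22 that can take its place in the subunit and whose level Rpl22 holds down in mice, gave the largest change of all 81 genes. Its log2 ratio was -1.90 and -2.02 on the miR-23b/27b/24 arrays, against 0.41 and 0.13 on the vector arrays. It was 4.69-fold lower by this probe, with a log2 fold change of -2.23 ± 0.15 (SE, limma adjusted p = 0.00498), and both miR-23b/27b/24 arrays lay far below the reference. Its parent Rpl22 read 0.16 and 0.38 on the miR-23b/27b/24 arrays, against 0.86 and 0.93 on the vector arrays (log2 fold change -0.62 ± 0.14, SE, limma adjusted p = 0.0599). The groups of Rpl22 did not overlap, and it missed the threshold.

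Rpl36 read -0.97 and -0.82 in miR-23b/27b/24 cells, against 0.00 and 0.20 in vector cells (log2 fold change -0.99 ± 0.14, SE, limma adjusted p = 0.0239). Rpl26, which in human cells binds the p53 messenger, read -0.45 and -0.37 in miR-23b/27b/24 cells, against 0.36 and 0.55 in vector cells (log2 fold change -0.87 ± 0.13, SE, limma adjusted p = 0.0288). Both stood below the reference in miR-23b/27b/24 cells and at or above it in vector cells. Rplp1, an acidic protein of the stalk that calls elongation factors to the ribosome, read 0.62 and 0.73 in miR-23b/27b/24 cells, against 1.48 and 1.39 in vector cells (log2 fold change -0.76 ± 0.12, SE, limma adjusted p = 0.0321). It remained above the reference on all 4 arrays. Cy3 of Rplp1 was 17.35 and 17.21 on the miR-23b/27b/24 arrays, against 16.66 and 17.00 on the vector arrays. Rpl24, a protein at a bridge between the subunits, fell by 0.68 on the log2 scale (SE 0.12, limma adjusted p = 0.0357), and Rpl30, which in yeast limits the splicing of its own messenger, fell by 0.77 (SE 0.15, limma adjusted p = 0.0444). Rpl10a, which builds the stalk on the other side of the subunit, was the last to pass, at -0.77 (SE 0.15, limma adjusted p = 0.0495), and is named outside the rule because it completes the 13.

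Of the 3 stalk proteins, Rplp0 and Rplp2 did not pass, at log2 fold changes of -0.33 and -0.28. Rpl13 had the lowest value among large subunit genes that missed the threshold, at -0.88 ± 0.18 (SE, limma adjusted p = 0.0529). The positive values of the large subunit were those of Rpl21, Rpl7l1 and Rpl11. Rpl21 read 0.21 and 0.19 on the miR-23b/27b/24 arrays, against -0.85 and 0.27 on the vector arrays, a log2 fold change of 0.49 ± 0.38 (SE, limma adjusted p = 0.468) in which vector replicate 1 stood apart from the other arrays. Rpl7l1, a paralog of Rpl7 that works in ribosomal RNA processing, read 0.38 and 0.17 in miR-23b/27b/24 cells, against -0.23 and 0.03 in vector cells (log2 fold change 0.37 ± 0.16, SE, limma adjusted p = 0.215). Rpl11, which with Rpl5 and 5S RNA restrains Mdm2, was level within its error, at 0.13 ± 0.13 (SE, limma adjusted p = 0.592). Rpl5 had a log2 fold change of -0.52 ± 0.18 (SE, limma adjusted p = 0.154). Rps19bp1, the gene that is no ribosomal protein, had a log2 fold change of 0.33 ± 0.22 (SE, limma adjusted p = 0.403).

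The difference of medians, large minus small, was -0.05, which is smaller than the spread of 0.06 between replicate arrays for that difference. No test was made of it, because the genes of a subunit share their RNA and are not replicates. The difference was 0.102 by the Cy5 channel alone, and -0.314 by the second brightest probe, which 40 genes have.

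Among the paralogs, the changes of the pairs were not alike in size. Rpl22l1 had a log2 fold change of -2.23 beside -0.62 for Rpl22, and Rps27 had -0.93 beside -0.17 ± 0.13 for Rps27l (SE, limma adjusted p = 0.483), a target gene of p53. Rpl36al and Rpl36a read -0.21 and -0.02, and Rpl7 read -0.26 beside the positive Rpl7l1. Rpl3, Rpl10, Rpl39 and Rps4x read -0.45, -0.26, -0.09 and -0.21, and none of them passed. Rpl3l, the muscle form of Rpl3, was not well above background in Cy5 on any array, and is the 1 name without a kept probe. Rpl10l, Rpl39l and Rps4l had no probe under those names. The difference between paralogs was not tested.

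The ratio to the reference sets each gene against a mix of cell lines and does not rank genes by abundance. Averaged over all 4 arrays, it was highest for Rplp1, which had means of 0.67 in miR-23b/27b/24 cells and 1.44 in vector cells. Rps20 was also among the highest, with 0.41 in miR-23b/27b/24 cells and 1.05 in vector cells. By that average it was lowest for Rpl14, with -1.25 in miR-23b/27b/24 cells and -0.88 in vector cells, a gene whose probe was dimmer than most. Rps20 and Rpl14 did not pass the test, at log2 fold changes of -0.64 and -0.37.

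These genes are among the brightest spots of the array, and the part of brightness in the shift was not tested. Brightness is given as A, the average log2 intensity of both channels, and 77 of the 81 genes were in the brightest 10% of genes by mean A. In that class 47.1% of genes were negative, 4.97% were called lower, 6.24% were called higher and 30.1% had groups that did not overlap and were lower. Without the ribosomal protein genes the class had a median log2 fold change of 0.05. Closer in brightness, 60 of the genes had a mean A of at least 16, with a median of -0.48, 58 negative values and 18.33% called lower. Of the 113 other genes that bright, without any described as a ribosomal protein, 46.0% were negative, the median was 0.045 and 2.65% were called lower. The limit of 16 was chosen after the values were seen. Within the 81 genes the log2 fold change had a Pearson correlation of -0.31 with mean A, a description across genes that share their extracts. No member spot was saturated. Cy5 came from the low-gain scan for 92 to 103 of 146 member spots on the miR-23b/27b/24 arrays and for 108 to 112 on the vector arrays, against 1.72% to 2.37% of all spots, and the part of this in the shift was not tested.

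**Figure D2:**
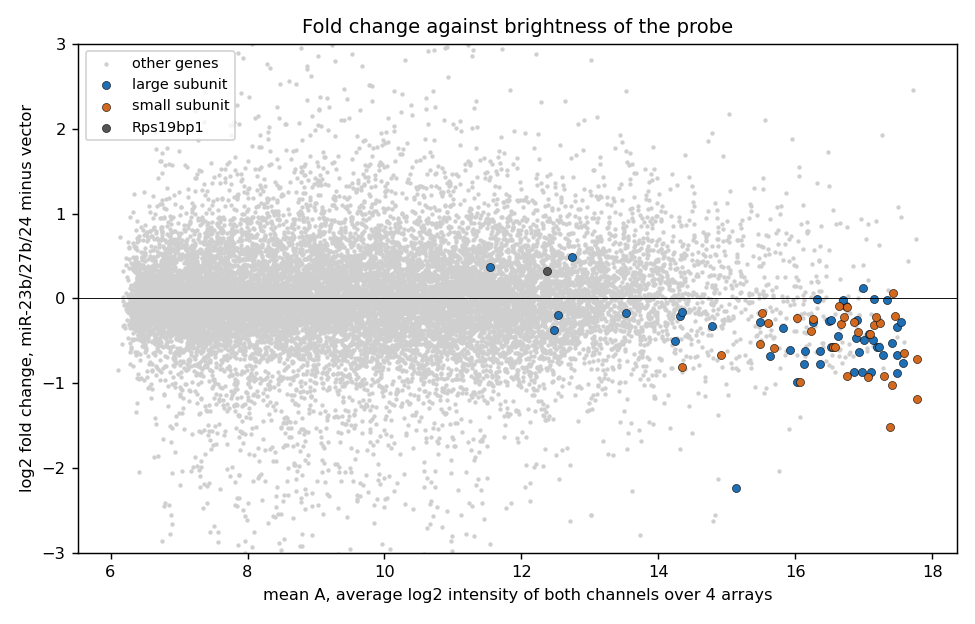
Each gene's log2 fold change (miR-23b/27b/24 minus vector) is plotted against its mean A, with other genes in grey, large subunit genes in blue, small subunit genes in orange and Rps19bp1 in dark grey. The ribosomal protein genes crowd at the bright end below the zero line, and 121 other genes lie beyond the plotted limit of 3.

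The size of the shift depended on how each array was centred. The standard fit draws a smooth curve through all spots, ribosomal protein probes included, and gave a median of -0.42. Leaving those probes out of the curve gave -0.55 and 20 genes that fell, which included all 13 of the standard fit. Centring on the array median gave -0.67 and 10, of which 8 were among the 13. The Cy5 channel alone gave -0.28 and 9, of which 6 were among the 13, with 68 of 81 genes negative. With every local background as measured 7 genes fell, as with the processed signals, log ratio or value table of the authors. The median was negative in every setting run.

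Probes of 1 gene agreed well where both were bright and poorly where the second was dim. Of 40 genes with at least 2 kept probes, 32 had a second probe of the same sign as the brightest. In 21 genes whose second probe had a mean A of at least 14, all 21 pairs shared their sign, differed by a median of 0.056 and correlated at 0.906 across genes. In the other 19 genes, 11 pairs shared their sign, the median difference was 0.57 and the correlation was -0.23. The limit of 14 was chosen after the values were seen, and these numbers are a description. Rps28 read -1.02, -1.08 and -1.01 by its 3 probes, and all passed at the level of probes. Rpl36 read -0.99 and -0.94, and Rpl24 read -0.68 and -0.69.

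**Figure D3:**
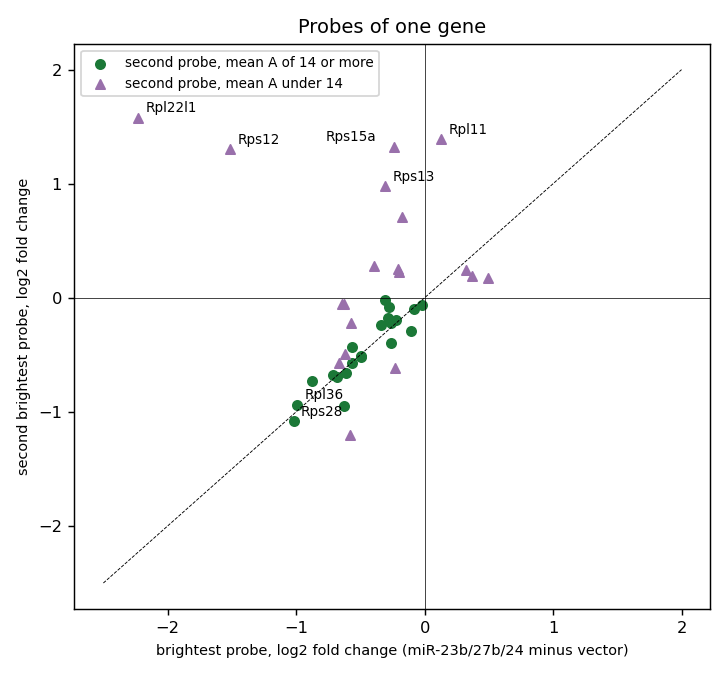
The log2 fold change (miR-23b/27b/24 minus vector) of the second brightest probe is plotted against that of the brightest for 40 genes, with circles where the second probe has a mean A of at least 14 and triangles where it is dimmer. Circles follow the dashed line of equality, while Rpl22l1, Rps12, Rps15a, Rps13 and Rpl11 stand far above it.

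Over all kept ribosomal protein probes, 22 of 134 fell and 5 rose, against 4.45% of all probes called lower and 5.43% called higher. Of the 103 with a mean A of at least 14, 101 were negative, 21 fell and the median was -0.45. Of the 31 dimmer ones, 11 were negative, 1 fell, 5 rose and the median was 0.22. The dim probe that fell reads Rpl23, a protein that binds Mdm2, at -1.20 beside -0.58 for its brightest probe. All 5 that rose were dim second probes, of Rpl22l1 (log2 fold change 1.58), Rpl11 (1.39), Rps15a (1.32), Rps12 (1.30) and Rps13 (0.98).

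In Rpl22l1 and Rps12 both probes passed the test in opposite directions. In log2 ratio, the second Rpl22l1 probe read 1.95 and 1.36 on the miR-23b/27b/24 arrays, against 0.09 and 0.06 on the vector arrays, at a mean A of 7.08 beside 15.1 for the brightest. The second Rps12 probe read 0.11 and -0.38 on the miR-23b/27b/24 arrays, against -1.42 and -1.44 on the vector arrays, at a mean A of 9.88 beside 17.4. In both, the groups did not overlap by either probe. The falls of Rpl22l1 and Rps12 are those of their bright probes, and which transcripts the dim probes read was not tested. The genes Rpl13 and Rps18 also had a wide range over their probes, with dim probes at 1.11 and 0.81 that did not pass.

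**Figure D4:**
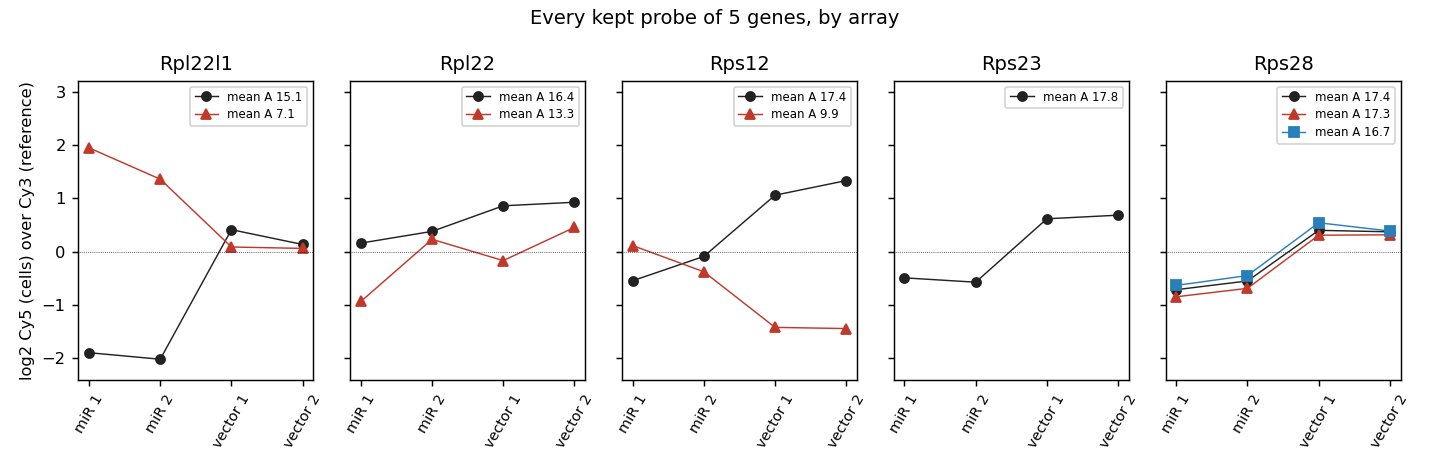
The log2 ratio of cells over reference is plotted by array for every kept probe of Rpl22l1, Rpl22, Rps12, Rps23 and Rps28, the miR-23b/27b/24 arrays left of the vector arrays, with 1 symbol per probe and its mean A in the legend. The probes of Rps28 run together, and those of Rpl22l1 and Rps12 cross.

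The record that a probe was designed on went with its brightness. Of the 134 kept probes, 114 were designed on a RefSeq transcript, with 105 negative values and a median of -0.43. The other 20 were designed on cDNA clones, expressed sequence tags or predicted records, with 7 negative values and a median of 0.27. Of these 20, the 6 with a mean A of at least 14 were all negative, and 1 of the 14 dimmer ones was. Besides the member probes, 45 probes are described in the files as predicted loci similar to a cytosolic ribosomal protein, and 44 were kept. Of these 41 were negative, 6 fell and 0 rose, with a median of -0.37, against 4.45% of all probes called lower and 5.43% called higher. Whether these probes read the transcripts of the ribosomal protein genes themselves was not tested, so they are not counted as further genes. A stretch of 25 bases identical to a probe under another name was found in 6 of the 137 member probes, among them the brightest probes of 5 genes, so the signals of near-identical copies cannot be kept apart there.

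The tract that marks TOP messengers was looked for at the gene starts. A start was held by RefSeq (GRCm38.p6) for 60 of the 80 ribosomal protein genes with a kept probe. The search took a C followed by 5 or more pyrimidines on the sense strand within 30 bases either side of the annotated start. It was present in 44 of the 60, or 73.3%, against 43.7% of 26964 other genes. The median log2 fold change was -0.46 for the 44 genes with the tract, and -0.29 for the 16 without. The narrower sequence CTTTCC, every match of which is also a match of the tract, was found in the same window in 11 genes, or 18.3%, against 3.4% of other genes, with a median of -0.35 with it and -0.47 in the 49 without. On the other strand 2 genes held it, or 3.3%, against 3.1% of other genes. Of the 13 genes that fell, 9 had a start and 7 of these had the tract. The sequence CCGGAA on either strand, the core to which ETS factors bind, was found in 55.0% of the 60 windows reaching from 250 bases before to 50 after the start, against 16.6% of other genes. The median was -0.37 with it and -0.47 without. A match is a description of letters in a window and no binding site. The tracts of 4 genes that fell are shown in capitals, from Rps12 at chr10:23787180-23787209 on the minus strand, Rps26 at chr10:128626481-128626510 on the minus strand, Rps27 at chr3:90213629-90213658 on the minus strand and Rpl22l1 at chr3:28805503-28805532 on the plus strand.
Rps12 start: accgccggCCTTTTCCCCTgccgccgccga
Rps26 start: cgccggatCCTCTTTCgagtcttggctcca
Rps27 start: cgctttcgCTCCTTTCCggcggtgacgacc
Rpl22l1 start: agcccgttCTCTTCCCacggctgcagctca

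Ribosomal proteins that the name rule misses had the same sign. Rack1, a signalling scaffold on the small subunit, read -0.07 and 0.18 in miR-23b/27b/24 cells, against 0.70 and 1.05 in vector cells (log2 fold change -0.82 ± 0.18, SE, limma adjusted p = 0.0596). Fau, which is made as a fusion to a ubiquitin-like protein, had a log2 fold change of -0.53. The groups of both genes did not overlap, and neither passed.

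Other messengers known to carry a TOP tract were also mostly negative. Of 21 measured, some of which stand in the translation factor lists too, 18 were negative, the median was -0.45, 3 fell and 0 rose. Over all genes 54.2% were negative, 4.66% were called lower and 4.78% higher. Npm1, a nucleolar chaperone of ribosome assembly, read 0.24 and 0.36 on the miR-23b/27b/24 arrays, against 1.13 and 1.25 on the vector arrays (log2 fold change -0.89 ± 0.13, SE, limma adjusted p = 0.0245). Btf3, which guides nascent chains, and Eif3e, a subunit of an initiation factor, both fell, with log2 fold changes of -0.82 and -0.82 (limma adjusted p = 0.0259 and 0.0420). These 3 had no overlap between groups. The elongation and termination factors had a median of -0.31 over 10 genes, with 0 that fell and 0 that rose at an adjusted p under 0.05 by limma. At an unadjusted p under 0.05, 3 of the 10 were lower and 1 higher, against 2696 lower and 2991 higher of all 20516 genes. Eef1b2 had the smallest p of these, at -0.60 (limma adjusted p = 0.0738).

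Genes that build ribosomes were split more evenly. The background for the counts of these lists was 4.66% of all genes called lower and 4.78% called higher. Of 61 ribosome assembly factors, 30 were negative, with a median of 0.00, and 2 fell, Npm1 and Imp3. Imp3, a part of the small subunit processome, read -0.69 ± 0.13 (SE, limma adjusted p = 0.0459). The 15 RNA polymerase I genes had a median of -0.12, and 0 passed by limma, with 2 lower and 0 higher at an unadjusted p under 0.05. At that cut 2696 of all 20516 genes were lower and 2991 higher. Initiation factors had a median of 0.05 over 36 genes, of which 5 fell and 1 rose. Eif5, which triggers GTP hydrolysis at the start codon, fell by 1.46 on the log2 scale, and Eif2s3x and Eif4a2 read -0.97 and -0.78 and also passed. Eif1ax, a start codon scanning factor, rose by 1.03 (limma adjusted p = 0.0378). The list held changes in both directions.

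Among 17 regulators of ribosome synthesis the median was -0.02, and 1 gene, Myc, the transcription factor that drives many ribosomal protein and assembly genes, fell, while 0 rose. Myc read -0.52 and -0.28 in miR-23b/27b/24 cells, against 0.79 and 1.59 in vector cells (log2 fold change -1.59 ± 0.29, SE, limma adjusted p = 0.0405). Vector replicates of Myc were wide apart, but the groups did not overlap. The 78 mitochondrial ribosomal protein genes, which build the separate ribosome of mitochondria, had a median of -0.02, with 40 negative and 38 positive. Mrpl32, Mrpl24 and Mrpl30 fell, at -0.90, -0.99 and -0.65, and Mrps12 rose, at 0.64. These 4 were all that passed of the 78. Over all genes 4.66% were called lower and 4.78% higher, 9.44% in all. The cytosolic set's median of -0.42 was set beside these lists as a description, and no test was made between lists.

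**Figure D5:**
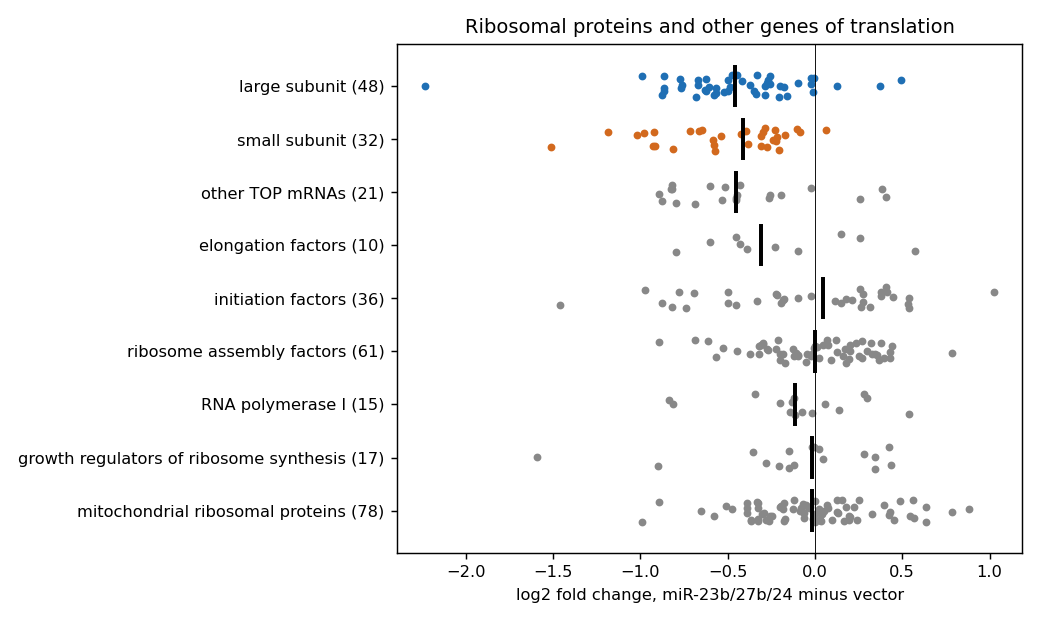
The log2 fold change (miR-23b/27b/24 minus vector) is plotted for each gene of the large subunit, the small subunit and 7 lists of other translation genes, with list sizes in brackets and a black bar at each median. Both subunits and the other TOP messengers lie mostly left of zero, while assembly factors and mitochondrial ribosomal proteins lie on both sides of it.

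Markers of cell type moved between the lines as well. Of 6 epithelial markers, 4 fell, among them Krt7, Epcam and Krt19 with log2 fold changes of -4.49, -3.61 and -4.03. Of the 6, 5 were negative with groups that did not overlap, and the median log2 fold change was -3.28. Over all genes 4.66% were called lower, and 32.3% had lower groups without overlap. Krt8 and Krt18, keratins of simple epithelium, were above the reference on all 4 arrays, which gives their level and not their change. Of 6 fibroblast markers 0 passed by limma, with 2 higher and 0 lower at an unadjusted p under 0.05. Of the 5 leukocyte markers measured, Ptprc and Lyz2 stood far below the reference on all 4 arrays, at -5.82 to -5.72 and -3.28 to -3.05. Cd3e and Cd79a, of that same list, read near the reference, at -0.18 to 0.11 and -0.03 to 0.35. Cd68, also of that list, fell by 1.68 and read -2.08 to -0.25 over the 4 arrays. Of the 2 adipocyte and 2 endothelial markers measured, 0 passed, and 0 passed at an unadjusted p under 0.05. The part of these marker shifts in the ribosomal protein values was not tested.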

How the data were processed

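Cell and reference RNA shared each of 4 arrays of 1 slide read in 1 scan, so no slide block was possible. Spot and background intensity, and a log10 ratio of dye-corrected Cy5 to Cy3, came from Agilent Feature Extraction 9.5.3.1, per the file headers. The authors' deposited log2 table was that ratio minus the probe's own median, to within 0.001 for 87.3% to 87.8% of values. Its column medians were 0.0221 and -0.0149 for miR-23b/27b/24 and 0.0133 and -0.0172 for vector arrays.

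Mean signals were corrected in R 4.3.3 with limma 3.58.1 by normexp (offset 50), outlier-marked local backgrounds being replaced by the array median, then by loess with weight 0 for control spots. That replacement follows earlier processing and was adopted with its results known. A probe was kept (30080 of 41174) if both arrays of either group read it well above background in Cy5, and a gene was represented by its brightest probe. Names of genes that are no member were updated through RefSeq (GRCm38.p6), with 8455 probes keeping the file's name. The fit used lmFit and eBayes, with 2 residual and 2.83 prior degrees of freedom, calling at an adjusted p under 0.05. The code was tested on simulated data. Between 69.9% and 74.8% of probes were well above background in Cy5 on an array, and the number of arrays limits the precision.

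The members, lists and rule for naming genes were chosen with earlier results of these data known. The rule named the first 12 members that passed, the extremes that did not, the extremes against the reference, genes with discordant probes, paralogs, and up to 3 called genes per direction of each list. Other genes are named where a count needs them, chosen after their values were seen. Same-numbered arrays did not deviate together (correlation 0.046 over all genes), so numbers were not treated as pairs. Alternatives changed background, centring, channel, filter, probe, names, moderation, block and arrays. Some genes that these rules select are not reported here.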

Additional observations from a re-analysis of the deposited data

How the results depend on the processing

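The median of the ribosomal protein genes was negative in all 21 alternatives, at -0.669 (array median in place of loess) to -0.206 (second brightest probe, 40 genes), with -0.282 from Cy5 alone. Some alternatives could not move it. Moderation and the replicate block leave fold changes as they are, and no member spot was saturated. The authors' table and the log ratio it was made from gave the same median of -0.376. The count of 13 ribosomal protein genes became 7 with measured backgrounds (635 genes called), processed signals, the deposited log ratio or the authors' table. It became 20 with ribosomal protein probes at weight 0, and 8 by the second probe, 3 of them lower. Array-median centring called 1263 genes and gave 0.0916 for the median log2 ratio to the reference of ribosomal protein genes. Large minus small was 0.102 in Cy5 alone and -0.314 by the second probe. By that probe Rpl22l1, Rps12, Rps15a and Rps13 reversed, to 1.579, 1.3, 1.323 and 0.9774. Leaving out 1 array, with the lone one assumed to vary like the other group, gave 0 to 31 ribosomal protein genes and 222 to 4588 genes called. With the replicate block 14 ribosomal protein genes passed, 9 of them among the 13, and 1761 genes were called in all, against 1936 without it. Probe pairs of like sign, run under alternatives chosen after seeing the data, stayed within 28 to 32 of 40 under background, centring and channel. The ratio to the reference cannot be had from Cy5 alone or the centred table. Beyond the weighting and probe choices themselves, the cause of these moves was not tested.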
